A study of Mus musculus with 4 samples.

Results

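The genes described here encode secreted and cell-surface parts of the innate defence of mucosal linings, and they were chosen by symbol: the antimicrobial peptide and iron-withholding genes Defb1, Camp and Lcn2, the secreted protease inhibitor genes Slpi and Wfdc2, the soluble pattern-recognition gene Ptx3, the antibody transporter gene Pigr and the Toll-like receptor genes Tlr2, Tlr4 and Tlr5. All probe sets annotated to one of these symbols alone were taken, which gave 16 probe sets for the 10 genes, of 45101 probe sets on the array. Transcripts were measured on 3 arrays of whole ureter and 1 array of a whole-body pool. The ureters came from male FVB/N mice at postnatal day 1 (Theiler stage 27) that carried the SMGA/EGFP transgene, in which smooth muscle gamma-actin (Actg2) sequences are tied to a green fluorescent protein, and were not pooled. The reference was a pool of whole FVB/N mice of the same age and of both sexes, with no transgene, used as a common standard. Tissue, transgene, sex and pooling therefore change together between the groups. The labels do not say whether each ureter sample is a different mouse; the p-values given below therefore reflect how far these samples vary, and that variation may be technical.

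The lower and upper urinary tract is lined by urothelium, an epithelium that faces urine and the bacteria that ascend in it. Such linings release small cationic peptides (defensins and cathelicidin) that damage bacterial membranes, lipocalin 2, which binds the siderophores bacteria use to take up iron, and whey acidic protein domain inhibitors, which hold neutrophil proteases in check. Toll-like receptors at the surface of epithelial and immune cells recognise bacterial lipoproteins (Tlr2), lipopolysaccharide (Tlr4) and flagellin (Tlr5) and signal through the factor NF-kB. Many of these proteins are also made by granulocytes, macrophages, kidney tubules, airway and gut, all of which a whole-body pool contains.

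The promoters of the members that hold a match to a searched motif are shown first, to give the regulatory sequence behind the genes described below. RefSeq promoter entries (build GRCm38.p6) were found for 8 of the 10 members, and the 250 bases before each start were searched on both strands for an NF-kB consensus, for the C/EBP-type motif TTGCNNAA and for the AP-1 motif TGANTCA, and on the sense strand for the TATA box TATAAA. In the sequences, given 5′ to 3′ along the gene, capitals mark the matched bases:
Tlr2 (chr3:83841609-83841858, minus strand): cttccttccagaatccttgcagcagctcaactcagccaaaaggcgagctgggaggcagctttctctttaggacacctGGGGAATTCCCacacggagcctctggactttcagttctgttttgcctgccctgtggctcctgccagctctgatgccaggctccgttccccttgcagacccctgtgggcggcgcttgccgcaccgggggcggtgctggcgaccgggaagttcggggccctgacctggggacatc
Lcn2 (chr2:32387740-32387989, minus strand): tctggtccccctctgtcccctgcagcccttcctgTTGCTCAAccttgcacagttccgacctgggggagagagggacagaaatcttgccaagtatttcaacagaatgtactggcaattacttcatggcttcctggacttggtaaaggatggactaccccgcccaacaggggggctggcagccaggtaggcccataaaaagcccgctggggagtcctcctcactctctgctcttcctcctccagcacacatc
Ptx3 (chr3:66219637-66219886, plus strand): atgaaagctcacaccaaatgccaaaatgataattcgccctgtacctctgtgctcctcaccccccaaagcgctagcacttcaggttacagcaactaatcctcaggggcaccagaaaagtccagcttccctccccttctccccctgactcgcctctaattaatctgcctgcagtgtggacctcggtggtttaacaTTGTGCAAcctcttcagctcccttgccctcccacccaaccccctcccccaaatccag
Slpi (chr2:164356508-164356757, minus strand): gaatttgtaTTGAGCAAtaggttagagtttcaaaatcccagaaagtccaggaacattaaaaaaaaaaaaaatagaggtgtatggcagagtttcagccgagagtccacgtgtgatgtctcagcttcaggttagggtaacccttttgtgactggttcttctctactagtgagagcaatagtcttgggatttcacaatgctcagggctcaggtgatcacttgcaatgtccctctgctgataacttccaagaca
The capitals in Tlr2 are overlapping matches to the NF-kB consensus, which 7.25% of all 32851 promoters of this length hold, and Tlr2 was the 1 member with a match. The capitals in Lcn2, Ptx3 and Slpi are the C/EBP-type motif, which 9.56% of promoters hold. No AP-1 motif (6.75% of promoters) and no TATA box in these letters (7.59%) lay in the windows of the 8 members. These are letter matches in a short window and were not measured for binding. The members that share the C/EBP-type motif had unlike values in the ureters: Lcn2 lay below the reference in 3 of 3 ureters, Ptx3 above it in 3 of 3, and Slpi above it in 2 of 3.

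Intensities are the deposited linear values. Differences are log2 ureter minus reference after quantile normalization and addition of an offset of 12.23, with the standard deviation (SD) over 3 ureters. The arrays' background was taken as the highest of 27 probe sets for bacterial transcripts, which was 57.2, 212 and 101.5 in ureter replicates 1, 2 and 3 and 188 in the reference. The ureters correlated with each other at 0.920 to 0.938 across probe sets and with the reference at 0.848 to 0.864. The ureters carried the markers of their labelled tissue: 17 of 18 urothelial genes and 9 of 10 smooth muscle genes were above the reference in all 3 ureters. Summed urothelial intensities were 336118, 253946 and 262189 in the ureters and 69449 in the reference.

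Across the members, 2 genes were above the reference in all 3 ureters (Wfdc2 and Ptx3), 4 were below it in all 3 (Lcn2, Camp, Pigr and Tlr4), and 4 had ureters on both sides (Defb1, Slpi, Tlr2 and Tlr5). Over all 13714 genes tested, 39.9% were above the reference in all 3 ureters and 31.5% below it. Of the 16 member probe sets, 4 were above it in all 3 ureters and 6 below it, against 39.2% and 30.1% of all probe sets tested. Only 13 of the 16 were bright enough to be tested, so these counts and shares cover unlike sets. The members were chosen with these same ureter and reference values known, so the counts and all the members' differences are descriptions, and no test is given for them. The median difference over the members was 0.22, against 0.10 over all genes tested. The members' median was -0.17 with the scaling as deposited and -0.22 without ureter replicate 2, so its sign rests on the processing and on that array.

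**Figure D1:**
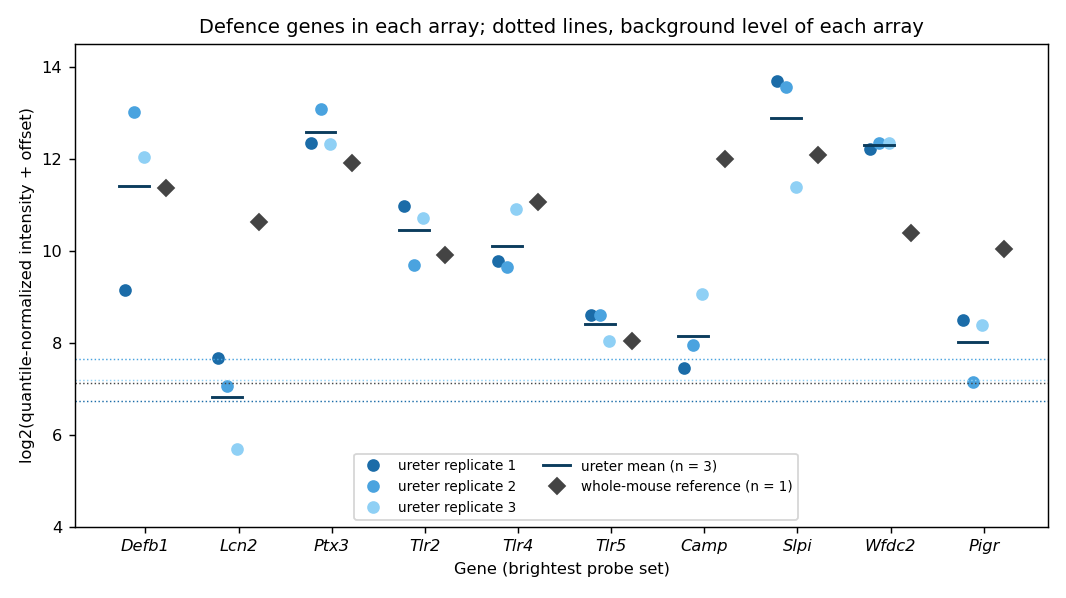
Log2 normalized intensity (y axis) of the brightest probe set of each of the 10 genes (x axis) in the 3 ureters (circles, with a line at their mean) and in the whole-mouse reference (diamond, n = 1); dotted lines are the background level of each array. Wfdc2 ureters lie within 0.14 of one another and above the reference, Defb1 ureters span 3.87, and Lcn2 and Camp ureters lie far below the reference; heights of different genes are not comparable.

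The secreted protease inhibitor gene Wfdc2 (probe set 1424351_at), whose product is a whey acidic protein domain protein of epithelial secretions, was the steadiest member. Its intensities were 4908, 5039.8 and 5365 in the ureters and 1442 in the reference. All 3 ureters were nearly equal and all lay above the reference. On the log2 scale Wfdc2 averaged 12.30 ± 0.08 in the ureters (SD, n = 3) and 10.39 in the reference, a difference of 1.91 (3.75-fold). Of all probe sets tested, 95.7% had a larger SD between the ureters.

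Slpi (1448377_at) encodes the secretory leukocyte protease inhibitor, an inhibitor of neutrophil elastase that epithelia secrete. It had intensities of 13859, 11967 and 2735 in ureter replicates 1, 2 and 3 and 4099 in the reference. Replicates 1 and 2 were about alike and above the reference, whereas replicate 3 lay below it. The difference from the reference was 1.61 and 1.48 in replicates 1 and 2 and -0.69 in replicate 3, with a mean of 0.80 and an SD of 1.29. The mean difference was 0.40 without replicate 1, 0.46 without replicate 2 and 1.54 without replicate 3. The summed urothelial markers, given above, were highest in replicate 1 and about alike in replicates 2 (253946) and 3 (262189). Their part in the Slpi values was not tested.

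Defb1, which encodes beta-defensin 1, an antimicrobial peptide of kidney tubules and other epithelia, differed most between the ureters. Its brighter probe set (1419491_at) had intensities of 445, 8199 and 4332 in ureter replicates 1, 2 and 3 and 2573 in the reference. Its dimmer probe set (1419492_s_at) had 248, 4463 and 2268 in the ureters and 1751 in the reference. Both probe sets put replicate 2 highest and replicate 1 lowest, and in both the reference lay between replicates 1 and 3. Highest over lowest ureter was 18.4-fold at the brighter probe set and 17.98-fold at the dimmer one. On the log2 scale the brighter one averaged 11.41 ± 2.01 in the ureters (SD, n = 3) and 11.36 in the reference, and the mean difference of 0.05 is far inside the spread between ureters. Only 1.32% of the probe sets tested had a larger SD. The sign of the Defb1 difference changed under 4 of 9 alternatives, over a range of -0.76 to 1.18.

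Most measured genes of the kidney, but not all, followed Defb1 across the ureters. On the normalized log2 scale Kap and Nphs1 were instead highest in ureter replicate 1, and Cubn and Slc34a1 in replicate 3. On the normalized log2 scale, 9 of 11 measured genes of kidney tubule and glomerulus were lowest in ureter replicate 1, as were 33.2% of all probe sets tested. On that scale 7 followed the order of Defb1 (replicate 2 highest, then 3, then 1), as did 19.7% of all probe sets tested. Nphs1 of the 11 was too dim to be tested, so these counts and shares cover unlike sets. Umod, the uromodulin gene of the thick ascending limb, had intensities of 32.9, 1993 and 917 in ureter replicates 1, 2 and 3 and 2046 in the reference. Slc12a1, the sodium-potassium-chloride transporter gene of the same segment, had 29.4, 4114 and 651 in the ureters and 969 in the reference, and Lrp2, the megalin gene of the proximal tubule, had 96.5, 2186 and 993 in the ureters and 1305 in the reference. Umod and Slc12a1 were below background in replicate 1. The kidney list summed to 3613, 14600.1 and 8759 in the ureters, against 11526 in the reference, and 8, 10 and 11 of its genes were above background in ureter replicates 1, 2 and 3, against 10 in the reference. The part of kidney transcripts in the Defb1 values was not tested. In whole tissue, fewer cells of a type and less RNA per cell cannot be told apart.

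Camp (1419691_at), the cathelicidin gene of granulocytes and epithelia, was among the members farthest below the reference. Its intensities were 104, 262 and 461 in ureter replicates 1, 2 and 3 and 3870.1 in the reference. All 3 ureters were above their array's background and far below the reference. The difference was -3.83 with an SD of 0.81, and it ran between -4.53 in replicate 1 and -2.94 in replicate 3.

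Lcn2 (1427747_a_at), the lipocalin 2 gene, had intensities of 125, 139 and 27.7 in ureter replicates 1, 2 and 3 and 1657 in the reference. Only replicate 1 was above its array's background, and all 3 ureters were below the reference. The difference computed from these signals was -3.82 with an SD of 1.01, but 2 of the 3 ureters were below background, so neither its size nor the spread between ureters is well measured. With those 2 ureters set to the lowest signal above background on their arrays, an alternative chosen after seeing the data, the difference was -3.12.

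Granulocyte transcripts, like Camp and Lcn2, lay below the reference. All 12 measured granulocyte genes were below the reference in all 3 ureters, with a median difference of -3.84. They summed to intensities of 1402, 3077 and 4140.1 in the ureters, against 47951 in the reference, so the reference was 11.6-fold above the highest ureter. Mpo, the myeloperoxidase gene, had 217, 429.9 and 324 in the ureters and 6253 in the reference, and Ngp, the neutrophilic granule protein gene, had 187, 284 and 468 in the ureters and 5703 in the reference. Elane, the neutrophil elastase gene, had 66.4, 108 and 108 in the ureters and 264 in the reference. The orders that follow were taken on the normalized log2 scale and can differ from those of the intensities. Ngp, for example, was 8.16, 8.08 and 9.07 there in ureter replicates 1, 2 and 3. Of the 12 genes, 8 were highest in ureter replicate 3, as Camp was, against 30.7% of all probe sets tested. Only 7, 5 and 9 of the 12 were above background in ureter replicates 1, 2 and 3, against 12 in the reference. The orders of the dim ones across the ureters are therefore not well measured. The full order of Camp (replicate 3 highest, then 2, then 1) was held by 3 of 12, against 13.4% of all probe sets tested. On that scale 4 of 12 were lowest in replicate 1, against 33.2%. These shares cover only probe sets tested, whereas Elane, Csf3r and Mmp8 of the 12 were too dim to be tested. By intensity most of the 12 were lowest in replicate 1, where the array's median intensity was also lowest. Lcn2 was below background in replicates 2 and 3, so no order across the ureters can be given for it. The part of granulocyte content in the Camp and Lcn2 values was not tested.

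**Figure D2:**
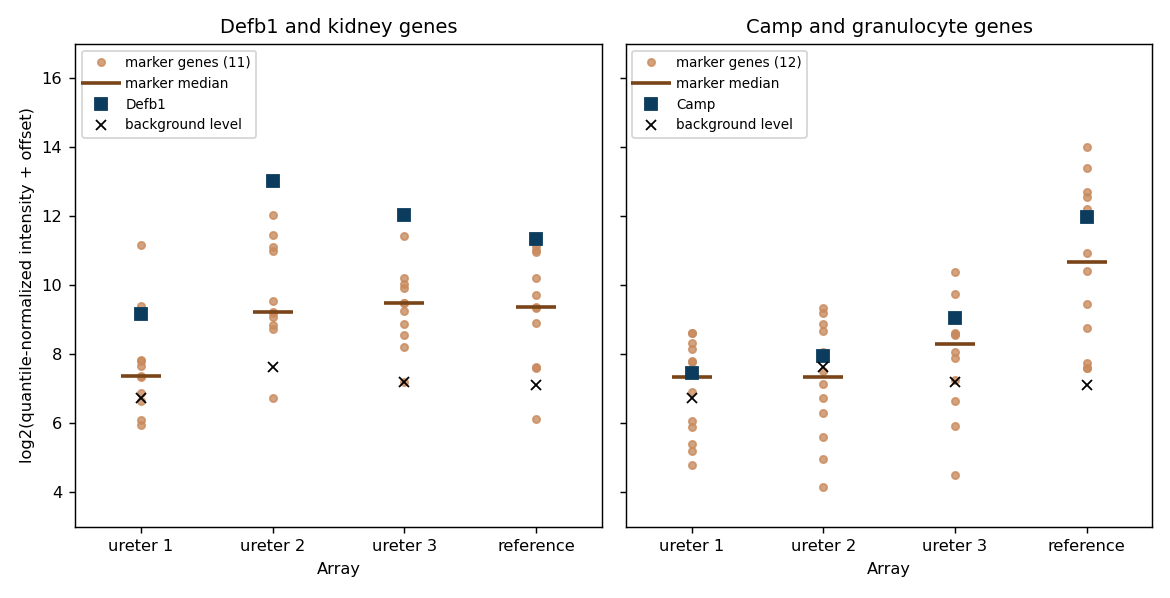
Log2 normalized intensity (y axis) on each array (x axis) of Defb1 with 11 kidney genes (left) and of Camp with 12 granulocyte genes (right); squares are the member, dots the marker genes, bars their median and crosses the array's background level. Defb1 and most kidney genes are lowest in ureter replicate 1, and Camp and the granulocyte genes are highest in the reference.

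Ptx3 encodes pentraxin 3, a soluble pattern-recognition protein that stromal and myeloid cells release. Its brighter probe set (1418666_at) had intensities of 5428, 8572 and 5329.65 in the ureters and 3643 in the reference, and its dimmer probe set (1456903_at) had 292, 519 and 457 in the ureters and 259 in the reference. The ureters lay above the reference at both probe sets. The differences were 0.68 with an SD of 0.44 at the brighter probe set and 1.33 with an SD of 0.19 at the dimmer one. The brighter difference was 1.51 with median-centred arrays and 0.43 without replicate 2.

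Pigr encodes the polymeric immunoglobulin receptor, which carries IgA and IgM across epithelia. At its brighter probe set (1455490_at) it had 250.3, 149 and 270.2 in ureter replicates 1, 2 and 3 and 1179.8 in the reference. Every ureter was well below the reference, and replicate 2 was below its array's background. The difference was -2.03 with an SD of 0.75, and -1.86 with replicate 2 set to the lowest signal above background. The dimmer probe set (1450060_at) had 89.7, 9.69 and 7.94 in the ureters and 238 in the reference, with only replicate 1 above background, and gave a mean difference of -2.04. In replicate 1 that probe set differed by only -0.16.

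Tlr2 (1419132_at), the receptor gene for bacterial lipoproteins, had intensities of 1985, 840.4 and 1657 in ureter replicates 1, 2 and 3 and 1090.2 in the reference. Replicates 1 and 3 were above the reference and replicate 2 was below it. The difference of 0.55 was smaller than its SD of 0.68.

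Tlr4, the lipopolysaccharide receptor gene, had 4 probe sets. The brightest (1418162_at) had 757, 811 and 1924 in ureter replicates 1, 2 and 3 and 2169 in the reference. All 3 ureters were below the reference, replicate 3 by only -0.15, and the mean difference was -0.96 with an SD of 0.70. The next (1418163_at) had 201, 499 and 319.6 in the ureters and 682 in the reference, a difference of -0.52 with an SD of 0.33. A dim probe set (1442827_at) went the other way, with 149, 223 and 44.2 in the ureters and 54.8 in the reference. There the reference was below background, as was ureter replicate 3, and the ureter mean was at least 1.11-fold the lowest signal above background in the reference. The dimmest (1430695_at), at most 33.6 on any array, was below background on all arrays, so no fold is given. The 2 Tlr4 probe sets above background on every array, 1418162_at and 1418163_at, shared a direction, with 0 of 3 ureters above the reference at either. With all 4 probe sets averaged, dim ones included, the Tlr4 difference was only -0.012.

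Tlr5 (1450242_at), the flagellin receptor gene, had 275, 409 and 201 in ureter replicates 1, 2 and 3 and 355 in the reference. Its difference was 0.38 with an SD of 0.33 after quantile normalization, with replicate 3 at the level of the reference (-0.0042), and -0.31 with the scaling as deposited. No direction can be given for Tlr5. Ly96 and Cd14, which encode partners of Tlr4 at the cell surface, are in the list of signalling genes below.

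Macrophages also carry Toll-like receptors. Of 12 macrophage genes 2 were above the reference in all 3 ureters and 5 below it, with summed intensities of 36860.3, 36116 and 29710 in the ureters and 56471 in the reference. All 8 pan-leukocyte genes were below the reference in all 3 ureters, with sums of 9844, 12001 and 9669 in the ureters and 23142 in the reference. The part of leukocyte content in the Toll-like receptor values was not tested.

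**Figure D3:**
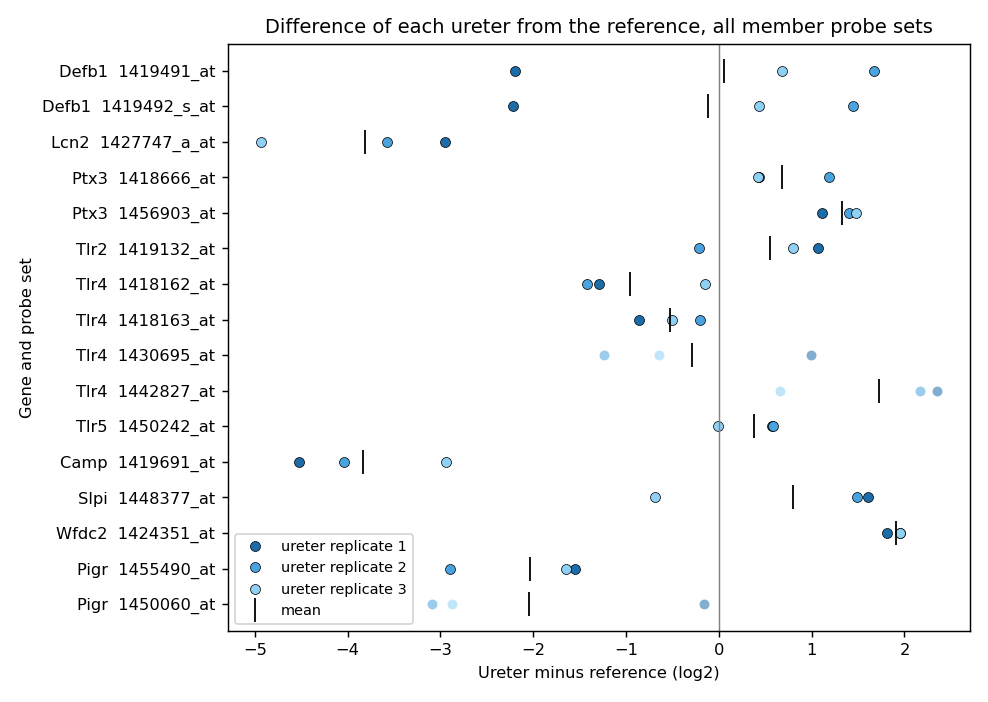
Log2 difference (x axis) of each ureter (circles) from the whole-mouse reference at all 16 probe sets (rows), with a bar at the mean; faint circles without an outline are the 3 probe sets too dim to enter the tests. Both Defb1 probe sets spread to either side of 0 in the same order of ureters, and the Tlr4 probe set whose mean lies above 0 is a dim one.

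Other genes of mucosal defence, in 6 lists that hold no member, were tested with limma over all 27022 probe sets. Of 94 genes tested, 4 were higher and 19 lower in the ureters at an adjusted p under 0.05. Of all genes tested 3.24% were called higher and 4.75% lower, and of all probe sets 2.94% and 3.42%. Without ureter replicate 3 the calls were 0 higher and 5 lower, and of the 16 called genes named by rule 11 lost their call, although all kept their sign. Reg3b, Crp, Dmbt1 and Muc13 were the 4 of these 16 that kept the call under all 10 alternatives; A2m lost it under 4 and Mbl2 under 3. The lists were drawn up with earlier results of these data known.

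No gene of Toll-like receptors and their signalling chain passed, of 25 tested, with 4 at an unadjusted p under 0.05, and the list's median was -0.11. Ikbkb, the kinase gene that releases NF-kB, differed by -0.11 ± 0.28 (SE), and Tlr9, the receptor gene for bacterial DNA, by 0.06 ± 0.64. The double-stranded RNA receptor gene Tlr3 (named after its values were seen) had 9715, 3156 and 3704 in the ureters and 853 in the reference, a difference of 2.73 ± 0.63 that missed the threshold (limma adjusted p = 0.0607). Cd14 (0.44 ± 0.43) and Ly96 (2.16 ± 0.73, adjusted p = 0.139), also named after their values were seen, did not pass in limma. The 4 genes at an unadjusted p under 0.05 were Tlr3, Ly96, Ikbkg (1.12 ± 0.40) and Lbp (-1.35 ± 0.46). Of these, only Lbp was lower in the ureters. No NF-kB response gene passed either, of 9 tested, with 3 at an unadjusted p under 0.05 and a median of -0.20. All of these 3, named after their values were seen, were lower in the ureters. They were Tnfaip3 (-1.15 ± 0.37), Sod2 (-0.72 ± 0.22) and Il1a, at background in all ureters and at least 2.76-fold lower. Nfkbia, the inhibitor gene that NF-kB itself induces, differed by -0.05 ± 0.25, and Birc3 by 0.05 ± 0.47. Of that list 8 further genes were too dim to be tested.

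Antimicrobial peptide and protein genes were called in 1 direction. Of 13 tested, 5 were lower, 0 higher, and 8 did not pass, with a median of -1.98. Reg3b and Reg3g, lectin genes of the gut epithelium, were at background in all ureters and at least 24.7-fold and 13.5-fold lower than in the reference (limma adjusted p = 0.0114 and 0.0287). Ltf, the lactoferrin gene, was lower, with a difference of -4.58 ± 0.75 (adjusted p = 0.0256, limma), and so was S100a8, a calprotectin subunit gene, with -4.61 ± 0.69 (limma adjusted p = 0.0218). Ltf had 138, 494 and 810.2 in ureter replicates 1, 2 and 3 and 10094 in the reference, the order of Camp. The fifth was Lyz1 (-1.32 ± 0.28, limma adjusted p = 0.0472), named after its value was seen, a lysozyme gene whose near-identical copy Lyz2 may share its probes. Slc11a1 (-0.15 ± 0.57) and Ang4 (-0.30 ± 0.71) did not pass. Ltf, S100a8 and S100a9 are also in the granulocyte list, so their part is not separate from it.

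Secreted protease inhibitor genes went both ways: of 18 tested, 3 were higher, 3 lower and 12 did not pass, with a median of -1.27. Wfdc15b, a whey acidic protein domain gene like Wfdc2 and Slpi, had 3594, 1749 and 2221 in the ureters and 334 in the reference, a difference of 3.28 ± 0.49 (limma adjusted p = 0.0216). Pi15 (2.86 ± 0.37) and Pi16 (2.74 ± 0.47), both named after their values were seen, were the other higher genes. Wfdc18, a further gene of the whey acidic protein family, had 152, 449 and 552 in the ureters and 5433 in the reference, a difference of -3.85 ± 0.60 (limma adjusted p = 0.0236). Spink5, a protease inhibitor gene of cornified epithelia, was at background in all ureters and at least 31.2-fold lower. A2m, a broad plasma inhibitor gene, was lower with a difference of -5.17 ± 1.02. A2m was below background in ureter replicate 2, so the size of that difference is not well measured. Wfdc1 (-0.26 ± 0.48) and Serping1 (0.51 ± 0.20) did not pass. In RefSeq (GRCm38.p6) Slpi and Wfdc2 lie on chromosome 2 with 7 protein-coding genes between them. The 5 of these bright enough to be tested (Matn4, Sdc4, Sys1, Dbndd2 and Pigt) had differences between -0.70 (Matn4) and 2.23 (Pigt, below background in the reference), with ureters on both sides of the reference at Matn4 and Sdc4.

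Genes of soluble pattern recognition and complement, the group of Ptx3, were lower for 6 of 16 and higher for 1. The short pentraxin genes Apcs and Crp, which the liver expresses, were lower with differences of -7.94 ± 1.19 and -6.49 ± 0.71 (limma adjusted p = 0.0214 and 0.0112), in the direction opposite to the long pentraxin gene Ptx3. Apcs had 100.4, 14.7 and 137 in the ureters and 22619 in the reference. The collectin genes Mbl2 (-4.79 ± 0.85) and Sftpd (-4.05 ± 0.62) were lower. Apcs, Mbl2 and Sftpd were below background in ureter replicate 2, and Crp in replicate 3. The sizes and errors of these 4 differences are therefore not well measured. Sftpa1, at background in all ureters and at least 8.94-fold lower, and Cfb were lower too. The scavenger collectin gene Colec12 was higher by 2.17 ± 0.43 (limma adjusted p = 0.0415). Sftpa1, Cfb and Colec12 were named after their values were seen. Masp1 (-0.13 ± 0.82) and C1qa (-0.17 ± 0.39) did not pass, although Masp1 passed as lower without ureter replicate 2 (limma adjusted p = 0.0419). The 6 measured liver markers summed to 3438, 2572 and 3483 in the ureters and 375970 in the reference, all 6 below it in all 3 ureters; the part of liver transcripts in these differences was not tested.

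Genes of mucus and mucosal immunoglobulin, the group of Pigr, were lower for 5 of 13 and higher for 0, with 8 that did not pass and a median of -2.50. Dmbt1, a scavenger receptor gene of gut and airway secretions, was at background in the ureters and at least 70.8-fold lower (limma adjusted p = 0.0110). Tff3, a trefoil factor gene of goblet cells, was at least 24.3-fold lower, and the membrane mucin genes Muc13 and Muc15 were lower with differences of -5.58 ± 0.39 and -2.50 ± 0.52. Muc15 lost its call under 6 of 10 alternatives, with limma adjusted p-values between 0.0512 and 0.139, whereas Muc13 kept its call under all 10. Fcgrt, the gene of the receptor that carries IgG across epithelia, was lower with a difference of -1.83 ± 0.27 (limma adjusted p = 0.0213) and was named after its value was seen. Ighm (-0.33 ± 0.44) and Muc20 (-0.38 ± 0.66) did not pass. All 10 measured markers of airway and salivary epithelium summed to 830.4, 1822 and 1016 in the ureters and 68021 in the reference, with 8 below the reference in all 3 ureters, and their part in these differences was not tested.

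**Figure D4:**
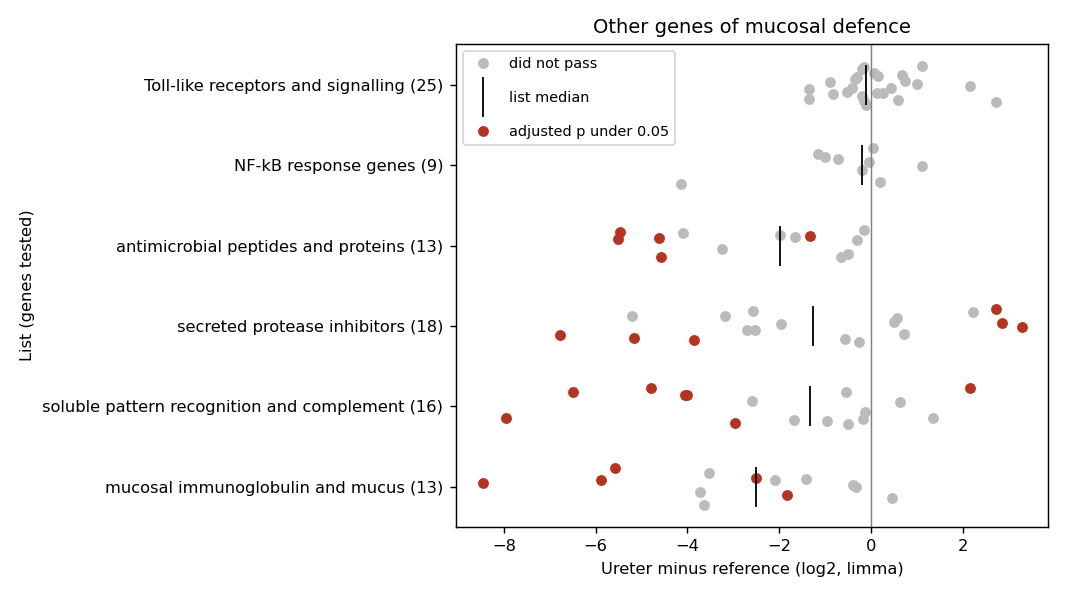
Log2 ureter minus reference (x axis) of every tested gene in the 6 lists of other mucosal defence genes (rows); red points passed limma's adjusted p of 0.05, grey points did not, and bars are list medians. The Toll-like receptor and NF-kB lists have medians of -0.11 and -0.20 and no call, and the mucus list has a median of -2.50.

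For the 5 members whose 4 arrays span at least 2 on the log2 scale, the 3 genes with the nearest profile were found by Euclidean distance of the 4 centred log2 values among 12983 genes. Nearest to Defb1 were Fxyd2, a sodium pump regulator gene (distance 0.19), Itpripl1 (0.32) and Cyp24a1, the vitamin D hydroxylase gene (0.51). Fxyd2 had 35.6, 971 and 384 in ureter replicates 1, 2 and 3 and 443 in the reference, the order of Defb1. In replicate 1 Fxyd2 and Cyp24a1 (17.9) were below background, whereas Defb1 was above it. Nearest to Slpi were Gria3 (0.38), Inca1 (0.41) and Pcdhb16 (0.48), and nearest to Pigr were Bhlhe40 (0.18), Coq10a (0.25) and Fbp2 (0.26). Those nearest to Lcn2 (Sult1c1, Mapk8ip2 and Aass) and to Camp (Onecut2, Fndc3c1 and Brsk2) include Sult1c1, Onecut2 and Brsk2, which were below background in every ureter. Lcn2 itself was below background in ureter replicates 2 and 3, and Pigr in replicate 2. Their near profiles therefore rest partly on values that are not well measured. With 4 arrays, a near profile describes these arrays only.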

How the data were processed

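The authors deposited linear intensities for each probe set of each array; the submitters' processing notes name GCOS, without a version. Per the labels' protocols, RNA was amplified in 2 rounds and biotin-labelled. The trimmed mean (2% off each end) of every array was 1500.01, so the authors had scaled them; whether background was subtracted is not stated there. Array medians spanned 1.11 on the log2 scale, so the 45037 non-control probe sets (64 controls left out) were quantile normalized, and log2(intensity + 12.23) was taken, the offset being the 10th percentile. A fold on this scale understates changes of dim probe sets. The dimmest 40% of probe sets, by the average of both group means, were then left out, which kept 13 of the 16 member probe sets. Limma 3.58.1 in R 4.3.3 (lmFit, eBayes with an intensity trend, two-sided, Benjamini-Hochberg over 27022 probe sets) was used. Its 2 residual degrees of freedom all come from ureters, and the 1 reference array is assumed to vary like them. It was tried on simulated data in which the reference had the ureters' spread and only bright probe sets were changed. That trial could check neither the assumption about the reference nor calls of dim probe sets. A gene is its brightest probe set. "At least" folds set the brighter group against the dimmer group's lowest signal above background. Symbols come from the platform annotation: 34958 probe sets had 1 symbol, 932 several and 9160 none; 34754 gene identifiers matched RefSeq, changing 0 symbols.

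The members and lists were chosen with earlier results of these data known. The naming rule took, per list, up to 4 called genes with the largest difference and 2 uncalled with the smallest. The number of arrays limits the precision. Alternatives were other scaling, offsets of 1 and 50, no filter, no trend, averaged probe sets, leaving out each ureter and, added later, signals below background set to the lowest above it.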

Additional observations from a re-analysis of the deposited data

How the results depend on the processing

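Of 90 member differences recomputed under 9 alternatives each, 1 of them chosen after seeing the data, 85 kept their sign. The exceptions were Defb1 (-0.028 as deposited, -0.031 with probe sets averaged, and -0.76 to 1.18 when 1 ureter was left out) and Tlr5 (-0.31 as deposited). Tlr4 kept its sign but came to -0.012 with probe sets averaged. The members' median of 0.22 became -0.17 as deposited and 0.56 with median-centred arrays, and lay between -0.22 and 0.29 when 1 ureter was left out. The median of all probe sets tested was 0.11, -0.15 as deposited and 0.61 with median-centred arrays. Members above the reference in every ureter numbered 2, against 4 with median-centred arrays and 3 to 4 when 1 ureter was left out. Probe sets called numbered 1720 (795 higher, 925 lower). They were 1271 (438 higher) as deposited, 1100 (411 higher) without the filter, 1074 (335 higher) without the trend, and 272 to 2132 (46 to 959 higher, 226 to 1173 lower) in the omissions, the lowest without replicate 3. Pathway genes called numbered 23 (4 higher, 19 lower). They were 12 (2 higher, 10 lower) without the trend, 2 higher as deposited, and 5 to 27 (0 to 5 higher, 5 to 22 lower) in the omissions. Uncalled pathway genes also changed sign: Tlr9 (-0.70), Ikbkb (0.013) and Birc3 (-0.11) as deposited, and Ikbkb (0.74), Nfkbia (0.61), Slc11a1 (0.052), Masp1 (0.26), C1qa (0.35) and Ighm (0.0029) with median-centred arrays. When 1 ureter was left out, Slc11a1 ranged between -0.45 and 0.098, Masp1 between -2.29 and 0.35, Tlr9 between -0.13 and 0.30, Nfkbia between -0.21 and 0.039 and Birc3 between -0.19 and 0.25. The split of higher and lower calls was 832 and 743 with median-centred arrays, 438 and 833 as deposited, and 761 and 742 with an offset of 1. The causes were not tested. Dim members near background (Lcn2, Camp, Pigr) are limited by signal over background. No paired analysis was possible because the reference is 1 array and shares no numbered pairs with the ureters.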
